A study of Homo sapiens with 4 samples.

Results

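Promoter anchors that exchanged every loop partner between WT and STAG2-KD cells were described from H3K27ac HiChIP of M14, a human melanoma cell line. In all of the cells a hairpin targeting STAG2 had been installed under the control of doxycycline. Cells cultured without doxycycline for 5 days were the WT group and cells cultured with it were the STAG2-KD group, so doxycycline itself and the hairpin cannot be told apart. The labels listed 2 samples per group, and 1 loop list per group was analysed. Each line of a list is 1 loop, given as a pair of 5 kb bins (the anchors) on hg19.

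The members were chosen by the loop lists themselves. A member is a 5 kb anchor that holds the start of a protein-coding transcript, carries 2 or more loops in each list, and has no partner bin in common between the lists. Of 22955 WT anchors and 22070 STAG2-KD anchors, 6617 and 6212 held such a start, and 2753 of them carried 2 or more loops in both lists. Of these 2753 anchors, 206 had no partner in common, which is 7.48%. The 206 members held starts of 246 genes and accounted for 592 anchor-partner pairs in WT and 609 in STAG2-KD. The other 2547 anchors kept at least 1 partner. Because the rule read both lists, the loss of the old partners is the definition of a member and not a result.

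HiChIP joins DNA ends that are neighbours in nuclear space and pulls down the joined fragments with an antibody. H3K27ac, the acetylated histone that was pulled down here, sits at promoters and enhancers in use. The pulled-down pairs are thus enriched for such elements, but a partner bin need not carry the mark, which was not read there. Cohesin, the ring complex that contains either STAG1 or STAG2, extrudes DNA into loops and is commonly stopped at sites bound by CTCF. A promoter that changes partners in such lists is called with other bins of its neighbourhood, and whether these act as enhancers was not read.

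The lists held positions without read counts or scores, so the depth behind each loop was unknown. A single list per group leaves the spread between cultures unmeasured, and no test was made. Percentages are given with 95% exact Clopper-Pearson intervals, which cover the counting of anchors or partners in these lists and not the variation between cultures. Neighbouring anchors share loops, so the intervals are too narrow. The lists covered 22 chromosomes and not X, where STAG2 lies. They hold no measure of the STAG2 level, so the knockdown could not be checked. The lists also give no expression, so the melanocytic identity of the cells could not be read from them. An anchor with 2 or more loops in both lists was found for 9 of 15 melanocyte lineage genes. The same held for 16 of 26 interferon signalling genes, 14 of 22 cell cycle and survival genes, and 71 of 157 genes over all pathway lists.

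The sequences below come from the members with the most loops and from those whose partners changed side. They show 2 kinds of DNA, promoters and matches to the CTCF motif. The first set is the 150 bases before the annotated start of 5 member genes in the GRCh37 reference (the hg19 sequence), 5′ to 3′ on the strand of the gene, none of which overlaps an annotated exon. Capitals mark CG dinucleotides, which are dense at CpG island promoters. The positions are chr6:43597002-43597151 (minus strand) for GTPBP2, chr6:30687979-30688128 (plus) for TUBB, chr12:76425557-76425706 (minus) for PHLDA1, chr12:56521901-56522050 (plus) for ESYT1 and chr13:111567417-111567566 (minus) for ANKRD10.
GTPBP2: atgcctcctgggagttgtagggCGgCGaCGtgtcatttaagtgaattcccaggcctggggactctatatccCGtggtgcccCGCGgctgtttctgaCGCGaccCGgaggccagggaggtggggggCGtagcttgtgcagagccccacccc
TUBB: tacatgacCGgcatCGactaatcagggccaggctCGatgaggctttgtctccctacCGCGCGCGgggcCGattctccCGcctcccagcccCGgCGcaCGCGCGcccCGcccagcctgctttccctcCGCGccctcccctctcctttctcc
PHLDA1: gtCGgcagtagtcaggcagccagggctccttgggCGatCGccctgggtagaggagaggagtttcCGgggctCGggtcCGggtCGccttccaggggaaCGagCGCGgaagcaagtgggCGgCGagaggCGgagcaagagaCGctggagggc
ESYT1: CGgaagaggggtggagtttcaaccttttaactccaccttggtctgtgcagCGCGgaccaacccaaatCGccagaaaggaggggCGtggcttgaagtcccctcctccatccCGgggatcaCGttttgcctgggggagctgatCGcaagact
ANKRD10: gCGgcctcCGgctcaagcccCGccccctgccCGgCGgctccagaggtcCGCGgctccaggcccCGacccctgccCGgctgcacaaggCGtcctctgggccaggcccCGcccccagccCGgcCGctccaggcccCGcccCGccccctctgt

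These windows held 10 CG dinucleotides for GTPBP2, 17 for TUBB, 14 for PHLDA1, 8 for ESYT1 and 15 for ANKRD10, at 64.7%, 70.0%, 69.3%, 58.7% and 82.0% G and C. The complete 5 kb anchors of the members had a median of 49.1% G and C (quartiles 45.6 and 52.8), beside 50.5% (46.7 and 54.6) for promoter anchors that kept a partner.

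The second set is the match to the strict core of the CTCF motif in partner bins of the same members, with 30 bases shown 5′ to 3′ on the strand of the match and the 12 letters of the core in capitals. The matches lie at chr12:75920878-75920907 (plus strand) in a WT partner of PHLDA1, chr3:141028277-141028306 (minus) in a WT partner of ZBTB38, chr1:110089053-110089082 (plus) in a WT partner of CYB561D1, chr6:30580210-30580239 (minus) in a STAG2-KD partner of MDC1 and TUBB, and chr6:44042446-44042475 (minus) in a STAG2-KD partner of GTPBP2.
PHLDA1, old partner: tggttcttgCCACTAGAGGGCaaatggtca
ZBTB38, old partner: gtaagaaatCCAGTAGGTGGCcaggtgtgg
CYB561D1, old partner: aaggaattgCCAGCAGGTGGCagtgtgagc
MDC1 and TUBB, new partner: atcccatttCCAGCAGAGGGCactggacag
GTPBP2, new partner: tcctagtggCCAGCAGAGGGCgccgccaaa

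Of these 5 matches, those of PHLDA1 and GTPBP2 point toward the promoter and the other 3 point away from it. The windows of CYB561D1 and GTPBP2 overlap an annotated exon. A match to these letters is a description of the sequence and not a bound site.

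The first question was how a complete exchange related to the number of loops at a promoter. Complete exchange was found mainly at promoters with few loops. Among promoter anchors with 2 loops in the list where they had fewer, 153 of 1088 had no partner in common (14.1%, 12.1 to 16.3). With 3 loops the share was 6.75% (43 of 637), with 4 loops 2.53% (9 of 356), and with 5 to 9 loops 0.171% (1 of 585). None of the 87 promoter anchors with 10 or more loops in both lists was a member, which allows a share of up to 4.15%. An anchor with fewer loops can match fewer partners, and how far this sets the decline was not tested.

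Promoters were not set apart from other anchors. Of the 4279 anchors without a protein-coding start and with 2 or more loops in both lists, 327 had no partner in common, which is 7.64% (6.86 to 8.48), beside 6.53 to 8.53 for promoter anchors. At 2 loops the shares were 14.1% for promoters and 14.4% for other anchors (12.8 to 16.1).

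**Figure D1:**
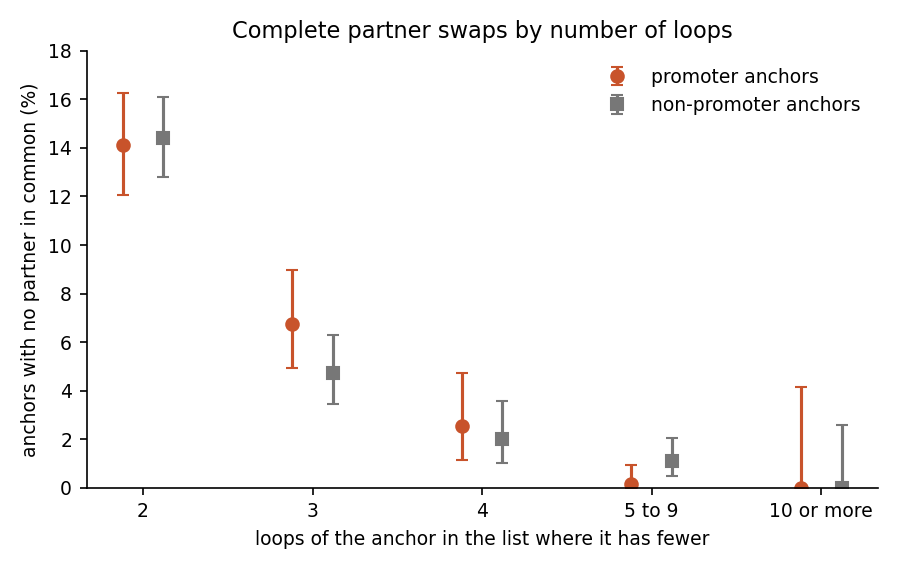
Share of anchors with no partner in common between the WT and STAG2-KD lists (vertical axis, %) by the number of loops in the list where the anchor has fewer (horizontal axis), for promoter anchors (circles) and other anchors (squares); bars are 95% exact binomial intervals. The share falls from 14.1% of promoter anchors with 2 loops to 0.171% with 5 to 9 loops, and the intervals of both kinds of anchor overlap in every class.

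The members closest to the limit of the rule were the 52 with exactly 2 loops in each list. Just outside it were 739 promoter anchors, or 26.8% of the 2753, that had exactly 1 partner in common. Among those 739, the promoters with the most loops were SAMD13, with 6 WT and 8 STAG2-KD loops and a common partner 50 kb away, and FAM200A with ZNF655, with 3 and 10 loops and a common partner 455 kb away at ZKSCAN1.

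Numbers of loops did not move in one direction. In STAG2-KD, 70 members had more loops than in WT, 68 had fewer and 68 had the same number. That is 34.0% with more and 33.0% with fewer, beside 33.8% (31.9 to 35.6) and 38.0% (36.2 to 39.96) of the 2547 promoter anchors that kept a partner. The widest differences, named here after their values were seen, were at MAP3K12 and TARBP2, which went from 2 loops to 13, at SLFN5, which went from 2 to 9, and at ALG6, which went from 9 to 2. MAP3K12 encodes a stress kinase of neurons, TARBP2 a partner of Dicer, SLFN5 an interferon-inducible Schlafen protein and ALG6 a glucosyltransferase of N-glycan synthesis.

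The members with the most loops in both lists showed what a complete exchange looked like at one promoter. The anchor of GLYR1 and UBN1 on chromosome 16 from 4895001 to 4900000 had 5 loops in each list. GLYR1 encodes a nucleosome-binding protein and UBN1 a subunit of the HIRA histone chaperone. Its WT partners lay 370, 220 and 80 kb to the left (toward lower coordinates) and 65 and 95 kb to the right. In STAG2-KD they lay 230, 110, 40 and 30 kb to the left and 70 kb to the right. The WT partner 370 kb away held HMOX2 and NMRAL1, and the one 80 kb away held ZNF500. The new partner 230 kb away held MGRN1 and UBALD1. The nearest old and new partners were 5 kb, or 1 bin, apart, at 65 and 70 kb.

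PHLDA1, an early response gene induced by growth factor signalling, had its anchor on chromosome 12 from 76425001 to 76430000. Its 4 WT partners lay 505, 285, 270 and 210 kb to the left, and none held a protein-coding start. Its 6 STAG2-KD partners lay 485, 470, 390, 330 and 50 kb to the left and 315 kb to the right. All WT partners were thus on one side, while the new set reached to both, and the partner on the right held BBS10. No old partner of PHLDA1 was within 2 bins of a new one, the nearest pair being 20 kb apart. The 4 old partner bins were all still in use in STAG2-KD, with 6, 4, 8 and 17 loops to other anchors.

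MDC1 and TUBB share an anchor on chromosome 6 from 30685001 to 30690000. MDC1 encodes a scaffold of the DNA damage response and TUBB a beta-tubulin. In WT its 6 partners lay 230, 160, 90 and 70 kb to the left and 80 and 190 kb to the right, and 4 of them held starts of HLA-E, PRR3, C6orf136 and GTF2H4. In STAG2-KD its 4 partners lay 105 and 30 kb to the left and 30 and 50 kb to the right, with NRM and PPP1R18 in the bin 30 kb to the left. The median partner distance went from 125 kb to 40 kb.

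The anchor of GTPBP2 and MAD2L1BP on chromosome 6 from 43595001 to 43600000 had 4 WT partners, at 35, 55, 425 and 615 kb, all to the right. Its 9 STAG2-KD partners were 55 kb to the left and 60, 75, 95, 140, 295, 445, 495 and 620 kb to the right. New partners included the starts of POLH and XPO5 at 55 kb, VEGFA, the vascular growth factor gene, at 140 kb, and TMEM63B at 495 kb. The farthest partner held a start of HSP90AB1, a cytosolic heat shock protein gene, in both lists, in neighbouring bins at 615 kb and 620 kb. At this gene the exchange was thus a shift of 1 bin, while the other 3 old partners lay 5, 20 and 25 kb from a new one.

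UBXN1, whose product binds ubiquitin and the ATPase p97, had 6 WT and 4 STAG2-KD loops at the anchor on chromosome 11 from 62445001 to 62450000. Its WT partners included GANAB at 35 kb, INTS5 at 25 kb, WDR74 at 160 kb and SLC3A2 at 175 kb. Its STAG2-KD partners included HNRNPUL2 at 45 kb and TAF6L at 90 kb, and the partner at 180 kb was 5 kb from the old SLC3A2 bin. ZBTB38, a zinc finger gene whose product binds methylated DNA, had 4 WT partners, at 140 and 60 kb to the left and 70 and 85 kb to the right. Its 6 STAG2-KD partners lay 425 kb to the left and 35, 50, 90, 190 and 545 kb to the right.

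PDE4B, which encodes a cyclic AMP phosphodiesterase, had WT partners 305 kb to the left and 130, 155 and 195 kb to the right. Its STAG2-KD partners were 20, 165, 180, 470 and 900 kb away and all to the right. None of these 9 partner bins held a protein-coding start. ESYT1, a gene for a tether between endoplasmic reticulum and plasma membrane, had the opposite kind of neighbourhood. All of its 4 WT partners held coding starts, those of MYL6 (30 kb), SMARCC2 (60 kb), CS (170 kb) and TIMELESS (320 kb), all to the right. Its 5 STAG2-KD partners all held coding starts as well: those of RPS26 and PA2G4 to the left at 85 and 25 kb, and of NABP2 and RNF41 (95 kb), STAT2 (230 kb) and SPRYD4 (340 kb) to the right.

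**Figure D2:**
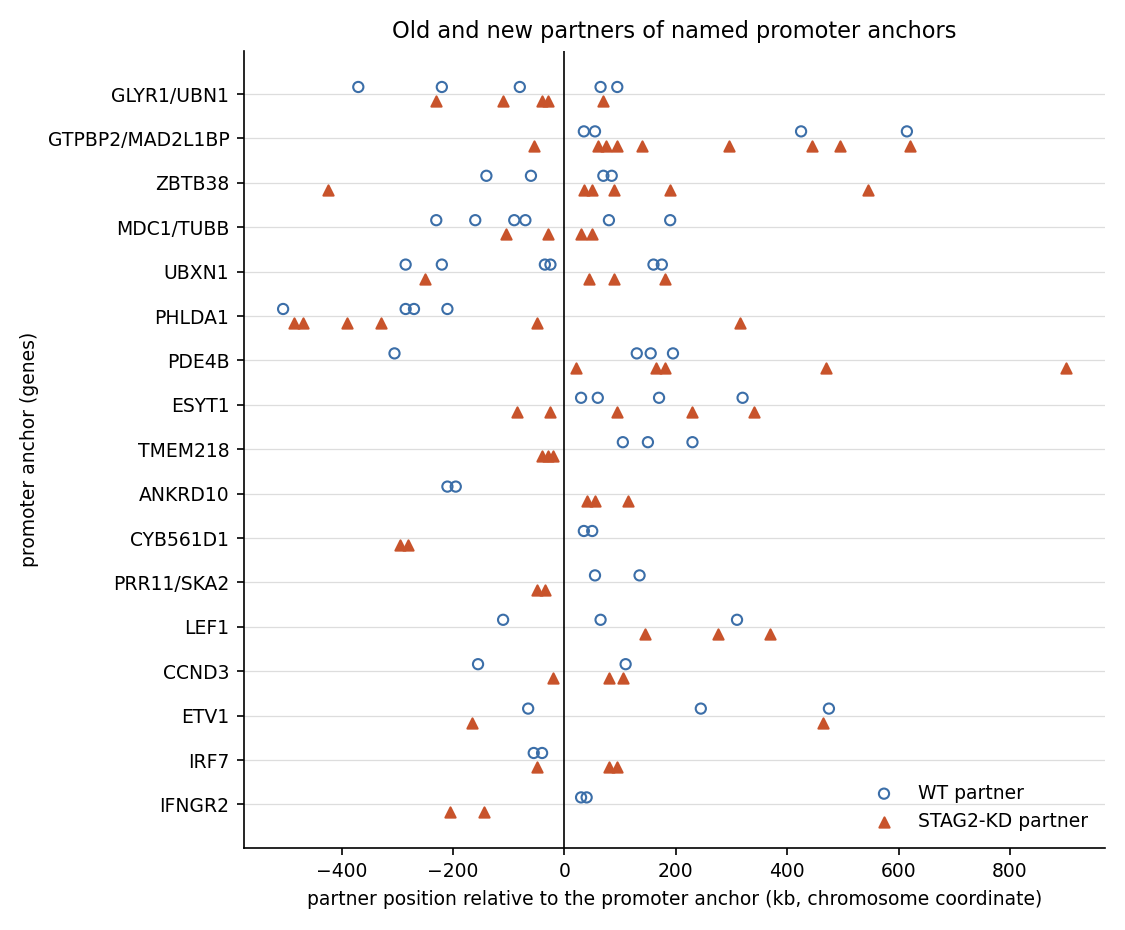
Position of each partner relative to its promoter anchor (horizontal axis, kb along the chromosome, 0 is the anchor) for 17 named members (vertical axis), with WT partners as open circles and STAG2-KD partners as triangles. No circle and triangle of a row coincide, TMEM218, ANKRD10, CYB561D1, PRR11 with SKA2 and IFNGR2 have their triangles on the other side of 0, and PDE4B reaches 900 kb in STAG2-KD.

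The next question was how many exchanges were shifts of 1 or 2 bins. Few were shifts of the complete partner set. In 3 members every new partner lay within 1 bin of an old one, and in 5 members (2.43%, 0.793 to 5.57) within 2 bins. Named after their values were seen, the 3 were ALG6, DHX30 and CCDC157 with SF3A1, and the other 2 were CHCHD4 with TMEM43 and MTG2. In ALG6 the 2 STAG2-KD partners at 45 and 75 kb lay beside WT partners at 50 and 70 kb, while the WT partner at 85 kb and 6 on the other side, at 90 to 490 kb, had no counterpart within 1 bin. In SF3A1, a splicing factor gene, the new partners at 25 kb to the left and 65 kb to the right lay beside old ones at 30 and 70 kb. In no member did every partner of both lists have a counterpart within 2 bins (0 of 206, which allows up to 1.77%).

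Single partners moved by 1 or 2 bins more often. In 58 members (28.2%, 22.1 to 34.8) at least 1 new partner lay 1 bin from an old one, and in 91 members (44.2%, 37.3 to 51.2) 1 or 2 bins from it. The closest old and new partners were 3 to 5 bins apart in 53 members, 6 to 10 bins in 33, 11 to 20 bins in 16 and over 20 bins, or more than 100 kb, in 13. The median over members was 15 kb. If partners within 1 bin were counted as common, 148 members remained (5.38% of the 2753), and within 2 bins 115 remained (4.18%).

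The anchor itself could also lie in a different bin. When loops of the bins on either side of the promoter were pooled with its own and partners within 1 bin counted as common, 119 members remained. With 2 bins on either side and partners within 2 bins, a setting added later, 76 remained (2.76%). In 59 members (28.6%, 22.6 to 35.3) the other list joined a partner to a bin 1 or 2 away from the promoter anchor. Bins directly beside the anchor were themselves anchors of either list for 34.0% of members (27.5 to 40.9), beside 18.6% of promoter anchors that kept a partner (17.2 to 20.2). At an equal number of loops the shares were 32.7% (25.3 to 40.7) and 21.8% (19.2 to 24.6) for 2 loops in the list with fewer, and 37.2% (23.0 to 53.3) and 18.7% (15.6 to 22.1) for 3. Whether loops split over neighbouring bins account for the members was not tested.

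A gene rather than a bin was kept in some cases. In 10 members (4.85%, 2.35 to 8.75) an old and a new partner bin held starts of the same gene. Besides HSP90AB1 at GTPBP2, these were PPP1R18 at ABCF1, ATF7 at MAP3K12 and TARBP2, STAT6 at HSD17B6 and PRIM1, ZCCHC8 at KNTC1 and RSRC2, ARMC5 and ZNF668 at STX4, SMYD4 at RPA1, SEPTIN9 at SEC14L1, ITCH at DYNLRB1 and RNF215 at CCDC157 and SF3A1. SEC14L1 had 1 WT loop to SEPTIN9, at 230 kb, and 2 STAG2-KD loops to other starts of that gene, at 335 and 365 kb.

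Over all pairs, 11.3% of old partners (8.88 to 14.1) lay 1 bin from a new partner of the same promoter and 25.8% (22.4 to 29.6) lay over 20 bins from any. Of 609 new partners, 67 lay 1 bin away (8.63 to 13.8%) and 31.2% (27.5 to 35.0) over 20 bins. Partners that were lost or gained at promoters with another partner in common lay 1 bin from a partner of the other list in 7.35% and 7.65%, and over 20 bins away in 19.3% of both. The latter promoters have more partners in the other list, which brings the nearest one closer, so the values stand side by side without a comparison.

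**Figure D3:**
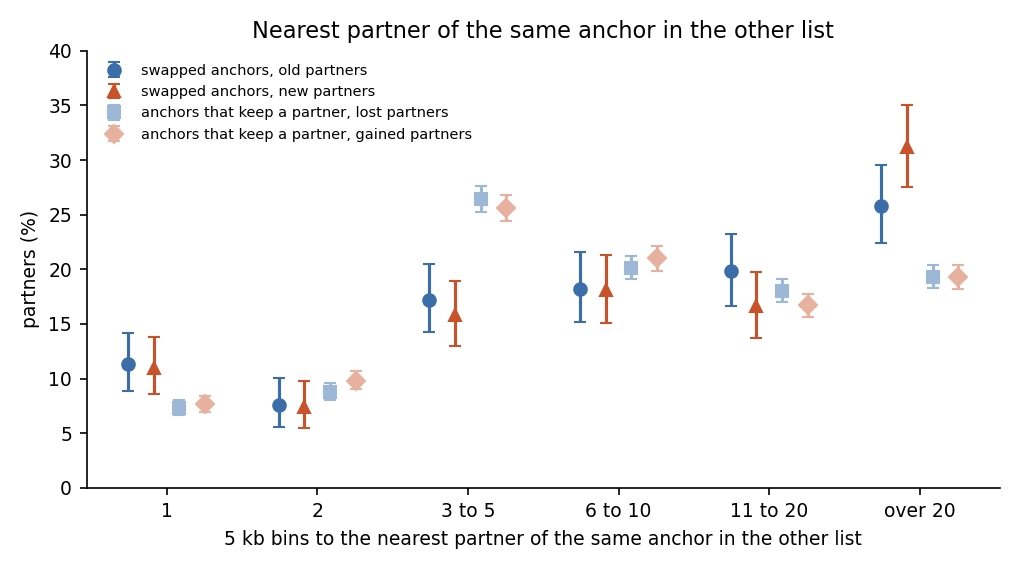
Share of partners (vertical axis, %) by the number of 5 kb bins to the nearest partner of the same promoter anchor in the other list (horizontal axis), for old and new partners of the 206 members and for lost and gained partners of the 2547 promoter anchors that kept a partner; bars are 95% exact binomial intervals. For the members, 11.3% of old partners and 67 of 609 new ones fall in the class of 1 bin, and 25.8% and 31.2% in the class over 20 bins.

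Distance changed in both directions. The median over members of the median partner distance was 127.5 kb (quartiles 78.1 and 190) in the WT list and 110 kb (65 and 182) in the other. Members with shorter partners in STAG2-KD numbered 116 and those with longer partners 88, and 2 had the same median. The difference, STAG2-KD minus WT, had a median of -15 kb (95% binomial interval -25 to 0), quartiles of -60 and 48.8 kb, and a mean of 0.886 kb (SD over members 131), so the median and the mean had opposite signs. When only the first 50% of each chromosome's lines were used, the rule, applied anew, gave 102 anchors with a median difference of 7.5 kb (-10 to 25). These anchors need not be among the members described here. Both intervals include 0 and they overlap, so no direction of the typical change was established.

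Promoters that kept a partner had medians of 97.5 kb (quartiles 60 and 150) in the WT list and 92.5 kb (57.5 and 152.5) in the other, and the quartile ranges overlap with those of the members. At 2 loops in the list with fewer, members had medians of 125 and 115 kb, beside 82.5 and 77.5 kb. Partners in common, which the members lack by definition, had a median of 85 kb (quartiles 40 and 175). Lost partners had 125 kb (65 and 225) and gained partners 125 kb (55 and 235). How far the rule sets the longer medians of the members was not tested. Old partners of members had a median of 115 kb (55 and 210) and new partners 105 kb (50 and 215). Under 50 kb lay 19.8% of old partners (16.6 to 23.2) and 23.5% of new ones (20.2 to 27.1), and over 200 kb lay 26.9% (23.3 to 30.6) and 27.3% (23.8 to 31.0). These intervals overlap.

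In 19 members all STAG2-KD partners were nearer than all WT partners, and in 10 members the order was the other way round. The largest rise was at EMC6 and TAX1BP3 on chromosome 17 from 3570001 to 3575000, from a median of 175 kb over 7 loops to 855 kb over 3. EMC6 encodes a subunit of the endoplasmic reticulum membrane complex. Its WT loops ran 35 to 620 kb and its STAG2-KD loops ran 25, 855 and 960 kb, the last to CLUH. SLC43A3, a purine transporter gene, rose from 100 kb to 727.5 kb at the bin from 57195001 to 57200000 on chromosome 11, with 1 new partner at 240 kb, which held ZDHHC5, and 1 at 1215 kb. Its other member bin, directly to the left, went from 227.5 kb to 30 kb, so neighbouring bins of one gene changed in opposite directions.

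HSP90AB1 had WT partners at 125 kb (TMEM63B) and 140 kb (CDC5L), on either side, and STAG2-KD partners at 480 kb (VEGFA) and 620 kb (GTPBP2 and MAD2L1BP), both to the left. Its median thus rose by 417.5 kb, although the WT list joined GTPBP2 to the HSP90AB1 bin next to this one. RO60 and UCHL5 had WT partners at 320 kb to the left and at 45 and 65 kb to the right, the last 2 at GLRX2 and CDC73, and STAG2-KD partners 505 and 335 kb to the left.

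The largest fall was at DOCK4, a guanine nucleotide exchange factor gene, from a median of 420 kb to 85 kb. Its WT partners at 185, 420 and 450 kb to the right, of which the last 2 held starts of IFRD1, gave way to partners 85 kb away on either side. APRT, which encodes an enzyme of adenine salvage, went from 375 kb to 45 kb, with new partners at PIEZO1 (25 kb) and at GALNS and TRAPPC2L (45 kb). Its remaining new partner, ZNF778 at 405 kb, lay 10 kb from an old one at 395 kb. TPM4, a tropomyosin gene, went from partners 700 kb to the left and 35 kb to the right to partners 35 kb to the left and 85 kb to the right. GPD2, which encodes the mitochondrial glycerol-3-phosphate dehydrogenase, lost partners at 785 and 35 kb and gained NR4A2 at 135 kb and bins at 90 and 580 kb.

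**Figure D4:**
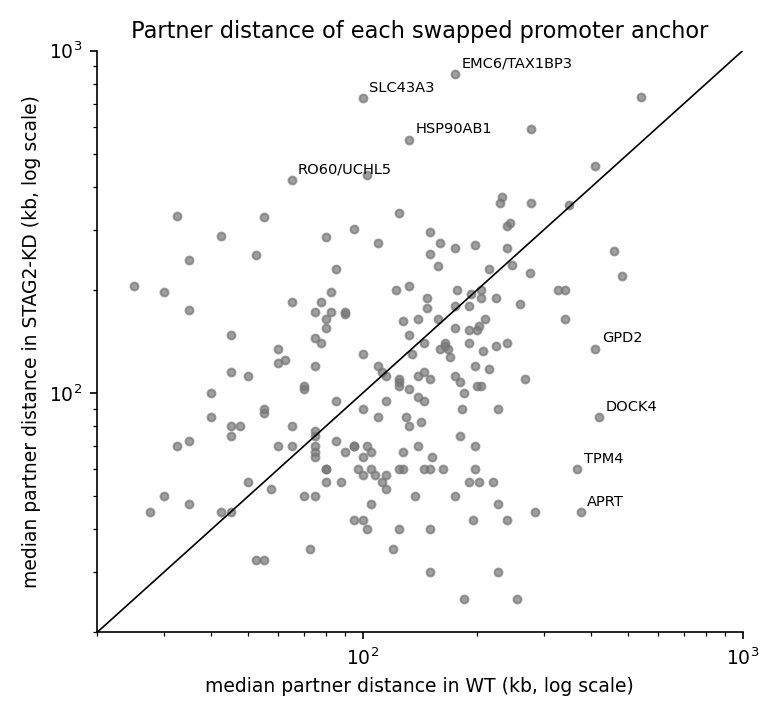
Median partner distance of each of the 206 members in WT (horizontal axis, kb, log scale) and STAG2-KD (vertical axis, kb, log scale), with the line of equal distance; the 4 largest rises and 4 largest falls are named. Of the points, 88 lie above the line, 116 below it and 2 on it.

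Direction was read next. A reversal of side was rare: in 6 members (2.91%, 1.08 to 6.23) all WT partners lay on one side of the promoter and all STAG2-KD partners on the other. TMEM218, a gene for a protein of the ciliary transition zone, had WT partners 105, 150 and 230 kb to the right and STAG2-KD partners 40, 30 and 20 kb to the left. ANKRD10 had WT partners 210 kb (CARS2) and 195 kb to the left and STAG2-KD partners 40, 55 and 115 kb to the right. CYB561D1 had WT partners 35 and 50 kb to the right and STAG2-KD partners 295 and 280 kb to the left, the nearer at SARS1.

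PRR11 and SKA2, a divergent gene pair of which SKA2 acts at kinetochores, went from 55 kb (SMG8) and 135 kb to the right to 50 kb (TRIM37) and 35 kb to the left. CAPNS1, the small subunit of calpain, named after its values were seen, went from partners 90 and 25 kb to the left to partners 30 and 75 kb to the right. The remaining reversal was IFNGR2, described with the interferon genes. All 6 had 2 or 3 loops in each list.

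Of the other members, 49 (23.8%) kept all partners on the same side, 50 (24.3%) had partners on both sides in both lists, 59 (28.6%) went from one side to both and 42 (20.4%) from both to one. Partners lay on one side alone in 114 members in WT (55.3%, 48.3 to 62.3) and in 97 in STAG2-KD (47.1%, 40.1 to 54.1). With 2 loops in the WT list, 70.6% of members (60.7 to 79.2) and 54.8% of promoters that kept a partner (50.6 to 59.0) were one-sided in WT. With 2 loops in the STAG2-KD list, 60.2% (50.1 to 69.7) and 57.5% (53.7 to 61.3) were one-sided there. At members with starts on 1 strand, 46.8% of old partners (42.3 to 51.4) and 44.5% of new partners (39.99 to 49.1) lay upstream of the gene.

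The rule did not read what lies in a partner bin, but it left out every partner in common, and such partners differ in kind at other promoters. Promoters made up a similar part of the old and the new partners. A protein-coding start lay in 38.5% of old partner bins (34.6 to 42.6) and in 39.2% of new ones (35.3 to 43.2). At promoters that kept a partner, the share was 38.5% of lost partners (37.2 to 39.8), 36.0% of gained partners (34.6 to 37.3) and 49.5% of partners in common (48.3 to 50.7). The members' shares stood near those of lost and gained partners. The lower share than among partners in common goes with the rule, which admits exchanged partners alone, and is no result about the members. In 109 members a promoter was among the partners in both lists, in 31 in WT alone, in 31 in STAG2-KD alone and in 35 in neither.

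Most partner bins were not lost from the lists. Of old partner bins, 58.3% (54.2 to 62.3) were still anchors of other loops in STAG2-KD, and of new partner bins 58.8% (54.8 to 62.7) were already anchors in WT. In 56 members every old partner bin was still used in STAG2-KD and in 30 members none was. The corresponding shares at promoters that kept a partner were 60.7% of lost and 60.5% of gained partners, so the members did not differ by more than their intervals.

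The CTCF motif did not separate old from new partners. The strict core was found in 6.08% of old partner bins (4.30 to 8.32) and in 4.11% of new ones (2.67 to 6.0), beside 4.27% of all WT anchors and 4.20% of all STAG2-KD anchors. It was found in 5.87% of partners in common (5.31 to 6.48). The promoter anchors themselves held it in 3.40% of members (1.38 to 6.88) and 4.44% of promoters that kept a partner. A looser core, with any letter at the ambiguous positions, was found in 21.1% of old and 21.5% of new partner bins.

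Other motifs were searched on both strands and added after the lists had been seen. They were TGANTCA, a loose form of the AP-1 site with any letter at N, and GAAANNGAA, a repeat found in interferon response elements. The loose AP-1 form lay in 77.4% of old (73.8 to 80.7) and 81.6% of new partner bins (78.3 to 84.6), beside 79.7% of WT and 81.3% of STAG2-KD anchors. The repeat lay in 78.4% and 80.3% of partner bins, beside 82.4% and 82.6% of anchors. Motifs this short occur in most 5 kb bins, and the intervals of old and new partners overlap.

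**Figure D5:**
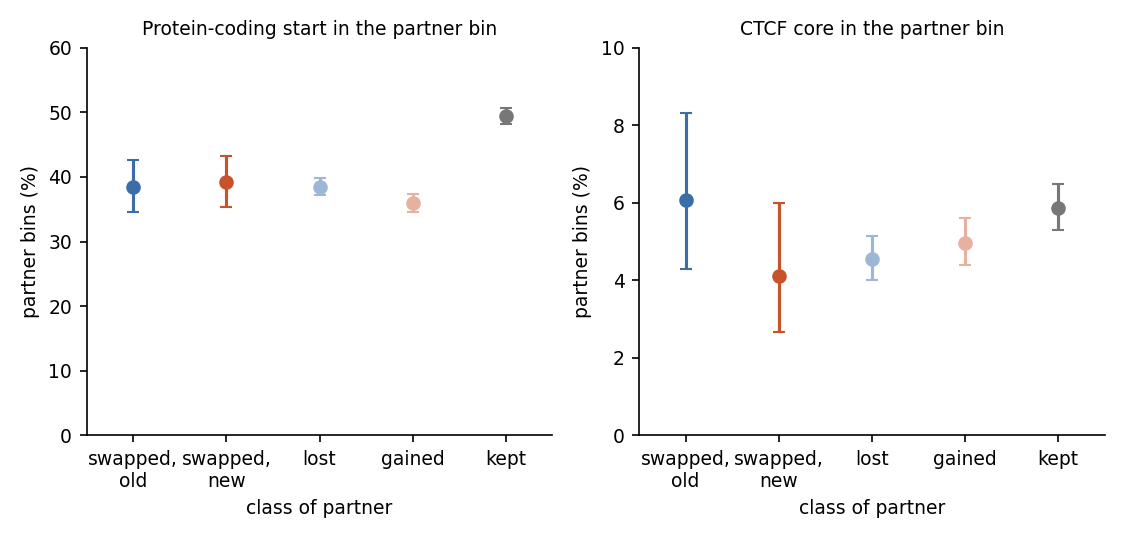
Share of partner bins (vertical axes, %) that hold a protein-coding start (left) or the strict core of the CTCF motif (right), for old and new partners of the 206 members and for lost, gained and common partners of the 2547 promoter anchors that kept a partner (horizontal axes); bars are 95% exact binomial intervals. Coding starts lie in 38.5% and 39.2% of the members' partner bins, beside 38.5% of lost, 36.0% of gained and 49.5% of common partners, and the intervals of the CTCF core overlap between old and new partners.

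The place of the loops in the lists was also read. With the lines of each chromosome numbered from 0 to 100%, old partners had a median position of 54.0% and new partners 50.4%. Partners in common at other promoters had 42.3% in the WT list and 42.7% in the STAG2-KD list, while lost partners had 58.6% and gained partners 55.5%. What orders the lines was not stated in the sources used here, and the part of this order in the exchanges was not tested.

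Genes were then grouped by lists of pathways. Over all lists, 71 of 157 genes had an anchor with 2 or more loops in both lists, and 5 of these (7.04%) had a member anchor, beside 246 of 3156 genes in all (7.79%). By list, member anchors were found for 2 of 16 interferon signalling genes, 1 of 9 melanocyte lineage genes, 1 of 5 genes of the MAPK pathway and its feedback, and 1 of 14 cell cycle and survival genes. None was found among 3 genes of cohesin and CTCF, 8 AP-1 and YAP-TEAD genes, 11 histone acetylation genes, or 5 TGF-beta and NF-kappaB genes. Counts this small do not set any list apart.

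IRF7, the interferon regulatory factor that drives type I interferon genes, had its anchor on chromosome 11 from 615001 to 620000. Its WT partners lay 55 kb to the left, at LMNTD2 and RASSF7, and 40 kb to the left, at PHRF1. Its STAG2-KD partners lay 50 kb to the left, 80 kb to the right at DEAF1 and TMEM80, and 95 kb to the right. The new partner on the left was 1 bin from the old one at 55 kb, while those on the right had no counterpart.

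IFNGR2, a chain of the interferon gamma receptor, changed side. Its anchor on chromosome 21 from 34775001 to 34780000 had WT partners 30 and 40 kb to the right and STAG2-KD partners 205 and 145 kb to the left. None of the 4 bins held a protein-coding start. The partner at 30 kb still had 4 other loops in STAG2-KD, and both new partner bins had 2 other loops in WT.

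LEF1, a transcription factor of Wnt signalling used in the melanocyte lineage, had 3 loops in each list at the anchor on chromosome 4 from 109090001 to 109095000. Its WT partners lay 110 kb to the left and 65 and 310 kb to the right, and its STAG2-KD partners 145, 275 and 370 kb to the right. ETV1, an ETS factor that acts downstream of MAPK signalling, had WT partners 65 kb to the left and 245 and 475 kb to the right. Its STAG2-KD partners lay 165 kb to the left and 465 kb to the right, the latter 10 kb from the old one at 475 kb. No partner of LEF1 or ETV1 held a protein-coding start.

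CCND3, which encodes cyclin D3 of the G1 phase, had WT partners 155 kb to the left, at FRS3 and PRICKLE4, and 110 kb to the right, at another start of CCND3 and at TAF8. In STAG2-KD its partners lay 20 kb to the left, at BYSL and MED20, and 80 and 105 kb to the right. The bins at 110 and 105 kb are neighbours, so 1 of its 2 old contacts was within 1 bin of a new one.

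Some further members were named singly after their values were seen. They come from no list, so they have no count of eligible genes and carry no theme. SLFN5 went from 2 partners, at 100 kb (UNC45B) and 295 kb, to 9 partners at 60 to 565 kb. The new ones included the Schlafen genes SLFN11 at 130 kb and SLFN12L at 240 kb. GBP1, an interferon-inducible GTPase gene, went from GBP3 at 45 kb and a bin at 210 kb to KYAT3 at 75 kb and GBP2 at 60 kb. HLA-E, a non-classical class I gene, went from partners at 180 and 230 kb to 5 partners at 85 to 595 kb, all to the right in both lists. ERAP2, a peptidase that trims antigenic peptides, went from partners at 85 and 65 kb to the left to 4 partners between 20 and 260 kb.

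KMT2D, ARID1A and MEN1 were likewise picked after their values were seen, while the histone acetylation list, which holds other chromatin genes, gave 0 of 11. KMT2D, a histone H3 lysine 4 methyltransferase gene, had WT partners at LMBR1L (50 kb), TUBA1C (205 kb) and TROAP (265 kb), all to the right. In STAG2-KD it had PRKAG1 40 kb to the left, TUBA1B at 70 kb and bins at 140 and 165 kb to the right. ARID1A, a subunit of the BAF remodelling complex, lost bins 90 and 60 kb to the left and gained one 75 kb to the left, between them, and others at 25 and 95 kb to the right. MEN1, the menin gene, exchanged ATG2A (105 kb) and SYVN1 (325 kb) for EHD1 (70 kb), SAC3D1 (230 kb) and a bin at 310 kb with starts of FAU, MRPL49 and ZNHIT2.

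Some members looped to each other. The WT list held 12 loops between members, which touched 23 of the 206 (11.2%, 7.21 to 16.3), and the STAG2-KD list held 5, which touched 10 (4.85%, 2.35 to 8.75). By the rule, a loop between members in one list is missing from the other. No such share was counted for other promoter anchors, so these counts are a description and no result about the members. WT loops between members included BCL6 to LPP at 410 kb, SF3B1 to HSPD1 and HSPE1 at 65 kb, STIM1 to RRM1 at 240 kb and UBXN1 to SLC3A2. STAG2-KD loops included KMT2D to PRKAG1 at 40 kb and SEC14L1 to SEPTIN9 at 365 kb. BCL6 is a transcriptional repressor gene, and LPP encodes a protein of focal adhesions. Their common WT loop is missing in STAG2-KD by definition, and the nearest new partner of BCL6 lay 10 kb from the LPP bin, at 420 kb.

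By chromosome, members numbered 27 of 336 promoter anchors on chromosome 1 and 24 of 198 on chromosome 11, the latter 12.1% (7.92 to 17.5). On chromosome 18 there were 0 of 35, which allows up to 10.0%. Chromosome 11 was the single one of 22 whose interval did not include the overall 7.48%.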

How the data were processed

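H3K27ac HiChIP of M14 cells was labelled as 2 WT and 2 STAG2-KD samples, grouped by title, and 1 loop list per group, filed under replicate 1, was analysed. Whether a list merges replicates was not stated. The authors used HiC-Pro (hg19), hichip-peaks and FitHiChIP, whose versions are not given in the sources used here. The deposited lists give a chromosome and 2 anchor positions per loop and no other value, so a loop under the calling limit is simply missing and cannot match.

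Anchors were read as 5 kb bins, counted from 1. Starts came from GENCODE release 44 on GRCh37. Distances run between anchor midpoints. Motifs were matched on both strands. Intervals are exact Clopper-Pearson at 95%, or binomial order statistics for a median. The member rule, gene lists and settings were chosen with earlier results of these data known. Named members were the 8 with the most loops in the list with fewer (ties by loops in total, then by chromosome and position, which left out DYNLRB1), the 4 largest rises and 4 largest falls of distance, 4 reversals of side ranked by loops in total (ties by chromosome and position, which left out CAPNS1), and members among the listed genes. Members with every partner of both lists within 2 bins were to be named and there were none, and all others were named after their values were seen. Sequences were read for the members with the most loops and for the reversals. The code was tested on a list made from the WT list by moving the partners of 60 anchors. All 60 were found, which checks the code alone and gives no rate of false members. Python 3.11.15, numpy 2.4.6, scipy 1.17.1, pysam 0.24.0 and matplotlib 3.10.9 were used.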

Additional observations from a re-analysis of the deposited data

How the results depend on the processing

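No paired analysis was possible because a single loop list stood for a group, and no replicate could be left out. Over 9 results, alternatives gave 282 values, of which 261 lay inside the reported interval or, for the number of members, within 1.5 times it. Among these were all 198 values with 1 chromosome left out, where members numbered 179 to 206. Such values share most lines with the main result, so their closeness to it says little. The 21 values that moved all came from other settings. Leaving out 1 STAG2-KD line off the 5 kb grid also gave 206 members.

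The number of members moved with the definition of a common partner: within 1 bin 148 (5.38% of promoter anchors) and within 2 bins 115 (4.18%). Changing both choices together, neighbouring anchor bins pooled and partners within 1 bin in common gave 119 (4.32%), and 2 anchor bins pooled on either side with partners within 2 bins, an alternative chosen after seeing the data, gave 76 (2.76%). Pooling alone was not run. More partners match by construction. With 3 or more loops in each list 53 members (3.18%) were left and 0% were complete shifts within 2 bins. With the earlier 50% of lines the rule, applied anew, gave 102 members (8.85%) and a median distance difference of 7.5 kb. The sign was opposite to the reported -15 kb, the anchors need not be the same, and the cause was not tested. Wider promoter definitions raised the share of partner bins with a promoter because more starts qualify: any gene type gave 51.2% of old and 50.2% of new partners, starts in neighbouring bins 55.4% and 51.2%, and all transcripts of protein-coding genes, also added later, 226 members with 44.8% and 45.1%. The looser CTCF core gave 21.1% and 21.5%. The lists carry no read support, so depth limits all of these values by an unknown amount.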
